A study of Mus musculus with 8 samples.

Results

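The genes described here encode the proteins of the mitochondrial ribosome, and were taken as every gene of the array whose symbol is Mrpl or Mrps followed by a number and at most 1 letter. There were 76 of them among 18193 genes measured, 49 in the large subunit, 26 in the small subunit, and Mrps36, which carries the family's name but belongs to the 2-oxoglutarate dehydrogenase complex. Each gene was read from a single probe set (a group of short probes against 1 transcript), the one with the highest mean over all arrays among probe sets that name 1 gene only. Mrpl30 and Mrpl53 were not measured by this rule, since the probe sets for them name several genes.

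Expression was compared in 8 mouse embryonic stem cell (ESC) lines that differ in Zfp281, a zinc finger transcription factor of ESCs, to ask what its loss does to the transcriptome. The 3 wild-type lines were 3, 3.2 and 3.3, the 2 heterozygous lines 5 and 3.1, and the 3 null lines 7, 3.34 and 3.38, with 1 array of total RNA from each. All lines came from blastocysts of matings between heterozygous mice, and all were grown on primary mouse embryonic fibroblast feeders with serum and the cytokine LIF. In the null allele a floxed neomycin resistance cassette took the place of both Zfp281 exons, and the labels do not say which lines had lost the cassette again. Each line descends from 1 embryo, so the spread within a genotype holds differences between embryos as well as technical error. By the study's own account null line 7 shares a litter with wild-type line 3, and null line 3.38 with wild-type line 3.3.

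Mitochondria keep a small genome that encodes core subunits of the respiratory chain, and a ribosome of their own translates its messages. Its RNAs are made in the mitochondrion, while all of its proteins are encoded in the nucleus, made in the cytosol and imported. Many of these proteins have a bacterial counterpart and the rest are specific to mitochondrial ribosomes, and ESCs, whose mitochondria are few and immature, rely strongly on glycolysis.

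The targeted gene, Zfp281, had log2 values of 6.72 to 7.93 in wild-type, 6.69 and 6.97 in heterozygous and 3.64 to 5.23 in null ESCs. A gene was called present where the Affymetrix detection test found its signal above that of mismatched probes, and 28.4% to 35.3% of probe sets were present per array. The 13 ESC markers had a summed level (linear scale) of 9327 to 12085 in wild-type, 11616 to 12524 in heterozygous and 18775 to 21023 in null ESCs, with 11 or 12 of them present in each line. Dppa5a was the brightest of them in every line and weighs most in the sum. It was 1.23 (log2) higher in null than in wild-type ESCs. The 19 fibroblast markers summed to 1940 to 3233, 2470 to 3496 and 1798 to 1985, with 11 to 17 present in each line, so markers of the feeder cells were detected in every sample. For Gapdh and beta-actin the array carries control probes at both ends of the transcript, and the gap between them (3′ level minus 5′ level), which widens as RNA or its labelled copies get shorter, was 4.23 to 4.86 (log2) in wild-type, 4.49 and 4.80 in heterozygous and 2.68 to 3.71 in null ESCs. Genotype accounted for 79.1% of the variance of this gap. Since these are bulk samples, fewer cells of a type and less RNA per cell cannot be told apart.

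Of the 76 genes, 58 were present in all 8 lines, and 67 in every line of at least 1 genotype, the rule by which a gene is called detected below. No line gave a present call for Mrpl14, Mrpl34, Mrpl38, Mrps5 or Mrps11 on the chosen probe set. Within wild-type and null ESCs the lines differed about as much for the members as for detected genes, and within heterozygous ESCs they differed less. The median standard deviation of the members was 0.19 (log2, n = 3 lines) in wild-type and 0.18 (n = 3) in null ESCs, beside 0.21 in each for the 7306 detected genes. In heterozygous ESCs it was 0.13 (n = 2), beside 0.20 for detected genes. Single members ran from 0.02 to 1.03 in wild-type and from 0.05 to 0.44 in null ESCs.

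Null ESCs had higher levels of most mitochondrial ribosomal protein mRNAs than wild-type ESCs. The mean was higher in null ESCs for 65 of the 76 genes, with a median log2 difference of 0.44, or 1.35-fold, and an interquartile range from 0.18 to 0.74. Over all genes the median was −0.01 and 46.8% had a higher mean, and over detected genes the median was −0.02. All 3 null lines lay above all 3 wild-type lines for 47 members, or 61.8%, against 11.1% of all genes and 17.8% of detected genes. The reverse, all null lines below, held for 1 member, Mrpl44, against 11.2% of all genes. Null lines lay above all 5 other lines for 39 members, or 51.3%, where 6.96% of all genes and 13.4% of detected genes did so.

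Single genes passed the test less often than the lines separated. At an adjusted p under 0.05 (limma, adjusted over all genes), 4 members rose in null ESCs and 0 fell, beside 0.693% of all genes rising and 0.44% falling. Before adjustment 44 members were higher and 1 lower at p under 0.05, beside 8.67% and 7.71% of all genes. A log2 difference over 1, the 2-fold threshold of the study's methods, was reached by 4 members and in the other direction by 0, where 1.37% of all genes were past it upward and 1.1% downward. Among detected genes the upward shares were 1.55% after adjustment, 16.6% before adjustment and 3.11% past 2-fold.

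**Figure D1:**
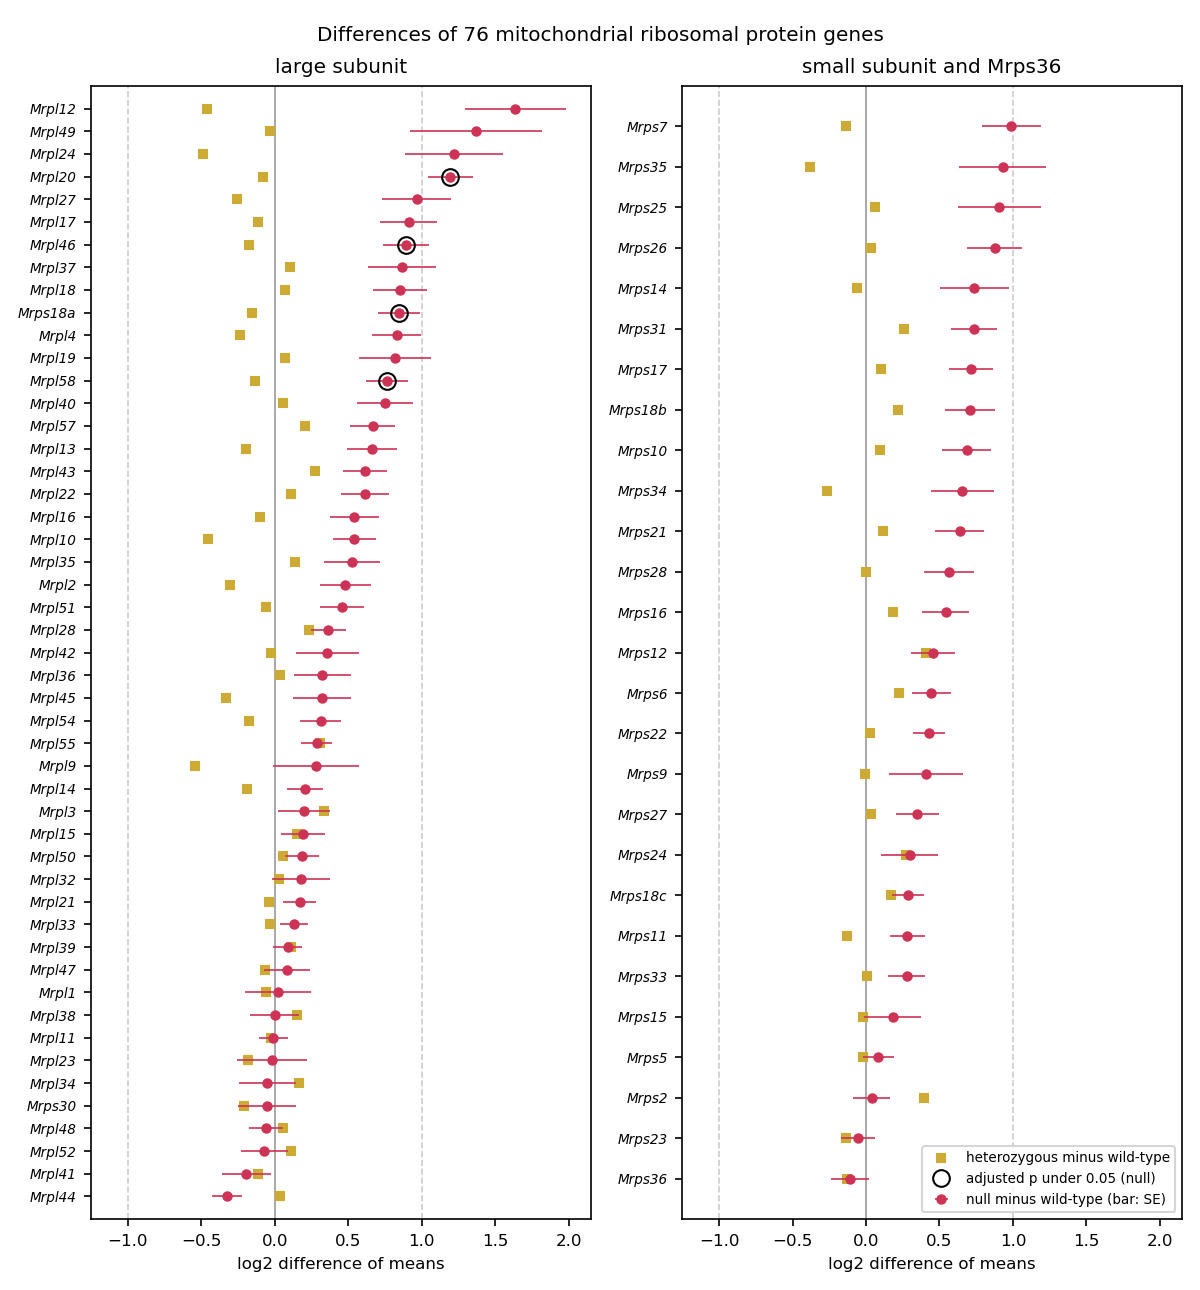
Log2 difference of means (horizontal axis) for each of the 76 genes, null minus wild-type as circles with the standard error and heterozygous minus wild-type as squares, with dashed lines at 2-fold and rings around the 4 genes at an adjusted p under 0.05. Circles lie right of 0 for 65 genes, while squares lie on both sides of it.

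The member with the clearest rise was Mrpl20, counterpart of a bacterial protein that acts early in the building of the large subunit. Wild-type lines 3, 3.2 and 3.3 read 6.71, 6.58 and 6.90 on the log2 scale, heterozygous lines 5 and 3.1 read 6.85 and 6.46, and null lines 7, 3.34 and 3.38 read 8.11, 7.78 and 7.89, an order of lines kept for every gene given here. Null lines thus stood apart from all other lines, by at least 0.88. Null and wild-type ESCs differed by 1.20 (standard error 0.15, adjusted p = 0.0301 from limma), which is 2.29-fold, and it was the only member past both thresholds.

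Mrpl46, a large-subunit protein without bacterial counterpart, measured 6.80, 6.43 and 6.87 in wild-type, 6.44 and 6.61 in heterozygous and 7.80, 7.39 and 7.60 in null lines. Its difference was 0.89 (standard error 0.16, adjusted p = 0.0467 from limma). Mrps18a, 1 of 3 relatives of bacterial S18 and the one that sits in the large subunit, measured 4.91, 4.92 and 5.06 in wild-type, 4.77 and 4.85 in heterozygous and 6.12, 5.60 and 5.71 in null lines, a difference of 0.85 (standard error 0.14, adjusted p = 0.0452 from limma). For both genes the heterozygous lines lay among or under the wild-type lines and the null lines above all of them.

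Mrpl58, also known as Ict1, is a peptidyl-tRNA hydrolase built into the large subunit that can free stalled ribosomes. It measured 6.52, 6.30 and 6.41 in wild-type, 6.36 and 6.19 in heterozygous and 7.31, 7.30 and 6.89 in null lines. The difference was 0.76 (standard error 0.14, adjusted p = 0.0483 from limma), with no overlap between null and other lines. All 4 genes that passed the test are thus of the large subunit, and 1 of them, Mrpl20, has a bacterial counterpart at the same place. These calls depended on single lines. With each of the 8 lines left out in turn, Mrpl20 passed in 5 fits and each of the other three in 1, and no member passed without null line 7, wild-type line 3 or wild-type line 3.2.

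**Figure D2:**
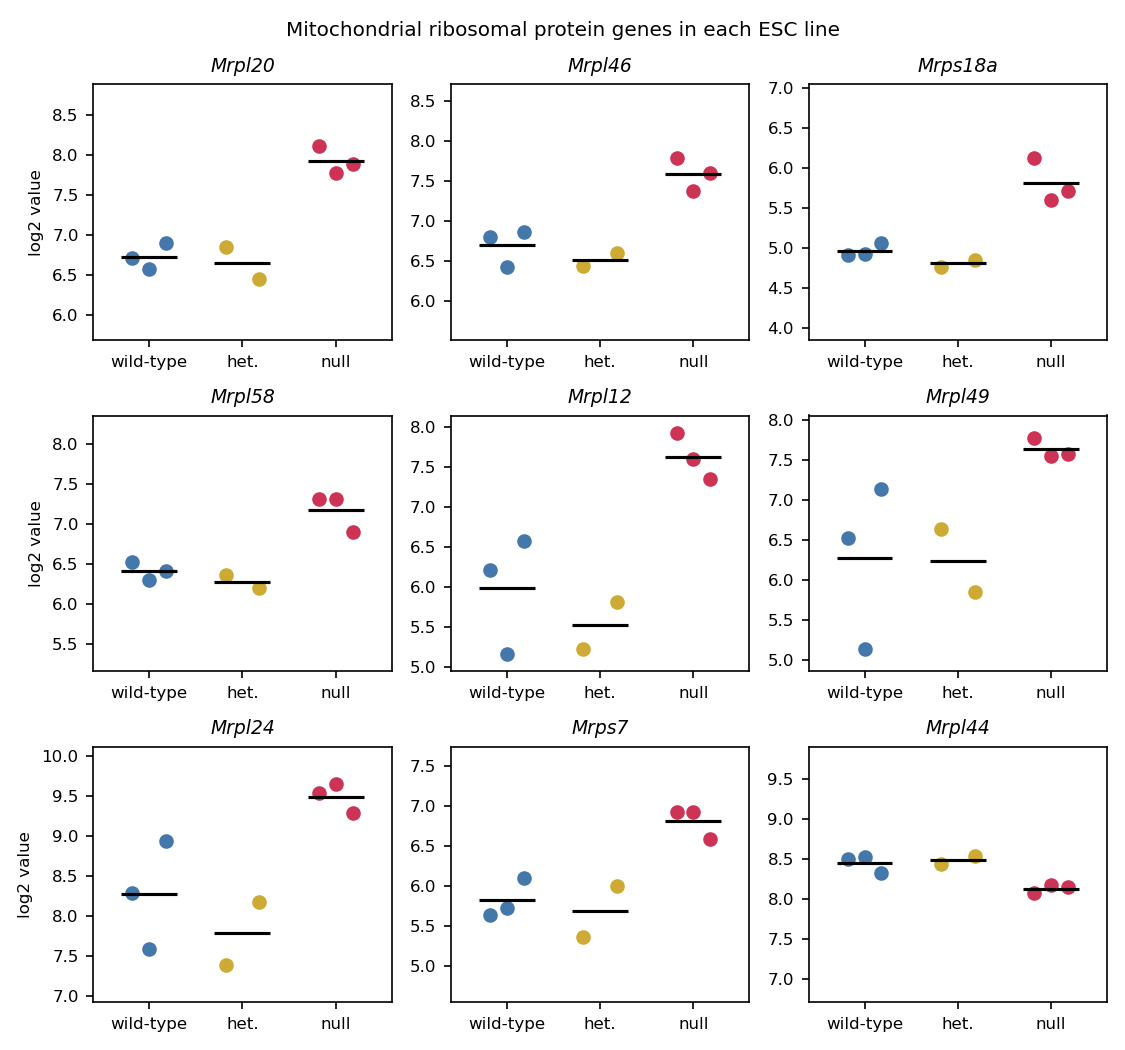
Log2 value (vertical axis, the same span in every panel) of 9 members in each line, with wild-type, heterozygous (het.) and null lines as points and the genotype mean as a bar. Null lines lie above all others in 8 of the 9 panels and below them for Mrpl44.

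The largest differences were in genes that also varied among wild-type lines. Mrpl12 forms the flexible stalk that recruits translation factors, and has been found bound to the mitochondrial RNA polymerase as well. It measured 6.22, 5.17 and 6.58 in wild-type, 5.23 and 5.82 in heterozygous and 7.93, 7.60 and 7.35 in null lines, a difference of 1.64 between null and wild-type (standard error 0.35, adjusted p = 0.0653 from limma). It was not detected in wild-type line 3.2 or in either heterozygous line, and so met the detection rule only through the null lines. Against heterozygous ESCs its level in null ESCs was at least 4.29-fold higher.

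Mrpl49, specific to mitochondria, measured 6.53, 5.14 and 7.15 in wild-type, 6.64 and 5.85 in heterozygous and 7.78, 7.56 and 7.59 in null lines, a difference of 1.37 (standard error 0.45, adjusted p = 0.170 from limma). Mrpl24, with a bacterial counterpart, measured 8.29, 7.59 and 8.94, then 7.39 and 8.18, then 9.54, 9.66 and 9.30 in the same order, a difference of 1.22 (standard error 0.33, adjusted p = 0.110 from limma). Wild-type line 3.2 was the lowest wild-type line in all 3 of these genes, and wild-type line 3.3 the highest. Without wild-type line 3.2 the number of members past 2-fold was 2, without wild-type line 3.3 it was 10, and without null line 3.38 it was 7. The share of all genes past 2-fold in these fits is not given.

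Other members just under 2-fold came from both subunits. Mrps7, a protein of the head of the small subunit, measured 5.64, 5.73 and 6.11 in wild-type, 5.37 and 6.01 in heterozygous and 6.93, 6.92 and 6.59 in null lines, a difference of 0.99 (standard error 0.20, adjusted p = 0.0599 from limma). Mrpl27, whose bacterial counterpart reaches toward the catalytic centre, differed by 0.97 (standard error 0.23), Mrps35, a small-subunit protein without bacterial counterpart, by 0.93 (standard error 0.30), and Mrpl17, next to the exit tunnel in bacteria, by 0.91 (standard error 0.19). Mrpl17 was the tightest of all members in null ESCs, at 9.61, 9.70 and 9.64, against 8.69, 8.34 and 9.19 in wild-type ESCs. None of these 4 passed the adjusted test. Mrps16, outside the naming rule and chosen after its values were seen, was present in no wild-type line, 1 heterozygous line and all 3 null lines. It thus met the detection rule only through the null lines. Its difference was 0.54 (standard error 0.16, adjusted p = 0.131 from limma), at least 1.46-fold higher in null ESCs.

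At the other end, 11 members had a lower mean in null ESCs. Mrpl44, a large-subunit protein related to ribonuclease III, was the only one whose lines separated, at 8.51, 8.54 and 8.33 in wild-type, 8.44 and 8.55 in heterozygous and 8.08, 8.18 and 8.15 in null lines. The difference was −0.32 (standard error 0.10, adjusted p = 0.158 from limma). Mrpl41 differed by −0.20, Mrps36 by −0.11, Mrpl52 by −0.07, and Mrpl48 and Mrps30 each by −0.06, and in all 5 the null lines overlapped the wild-type lines. Of the 5 genes present in no line, Mrpl14 (0.21), Mrps5 (0.08) and Mrps11 (0.28) had a higher mean in null ESCs and Mrpl34 (−0.05) and Mrpl38 (−0.00) a lower one.

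Members with the same role can be set side by side by subunit. Of the 49 large-subunit genes 40 had a higher mean in null ESCs, the lines separated upward for 28 and the median difference was 0.36. Of the 26 small-subunit genes 25 had a higher mean, the lines separated upward for 19 and the median was 0.50, though 0 passed the adjusted test against 4 in the large subunit. Among all genes 46.8% had a higher mean, the lines separated upward for 11.1% and 0.693% were called higher. Among detected genes the lines separated upward for 17.8%. The single small-subunit gene with a lower mean was Mrps23, at −0.05. By origin, the 45 genes with a bacterial counterpart had a median of 0.45, with 42 higher, and the 30 specific to mitochondria a median of 0.44, with 23 higher. Of the 20 mitochondria-specific genes of the large subunit, 14 were higher and 6 lower, while 9 of the 10 mitochondria-specific genes of the small subunit were higher, with a median of 0.68. These differences between subunits and origins were not tested.

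The 3 relatives of bacterial S18 show the range within 1 family. Mrps18a, in the large subunit, rose as given above. Mrps18b, in the small subunit, measured 7.04, 7.11 and 6.94 in wild-type, 7.17 and 7.33 in heterozygous and 8.05, 7.82 and 7.35 in null lines, a difference of 0.71 (adjusted p = 0.0871 from limma). Mrps18c, which takes the place of the bacterial protein, measured 7.65, 7.55 and 7.82, then 7.92 and 7.77, then 7.96, 7.89 and 8.02 in the same order, a difference of 0.29 (adjusted p = 0.242 from limma). Null lines lay above wild-type lines in all 3 relatives, and above the heterozygous lines as well in Mrps18a and Mrps18b.

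The shift was seen line by line. Against the wild-type mean of each gene, the median member stood at 0.46, 0.33 and 0.45 (log2) in null lines 7, 3.34 and 3.38, and 62, 66 and 68 of the 76 members were above that mean. In wild-type lines 3, 3.2 and 3.3 the median stood at 0.02, −0.14 and 0.11, and in heterozygous lines 5 and 3.1 at 0.04 and −0.07. All 3 null lines lay above the other five. Wild-type line 3.2 was the lowest wild-type line for 51 of 76 members, against 38.4% of detected genes, and was also the array with fewest probe sets present after heterozygous line 3.1.

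Lines of the same litter were also set against each other. Null line 7 stood above wild-type line 3 for 59 members, where 46.2% of all genes did so, with a median member difference of 0.42. Null line 3.38 stood above wild-type line 3.3 for 66 members, where 49.9% of all genes did so, with a median of 0.34. In both pairs 54 members, or 71.1%, were higher in the null line, against 28.1% of all genes and 34.9% of detected genes, and 5 were lower in both, against 31.8% of all genes. Mrpl20 differed by 1.40 and 0.99 in the 2 pairs and Mrps18a by 1.21 and 0.65. With these 4 arrays alone and the litter as a block, no member passed the adjusted test in limma, while 69 of all genes rose and 109 fell. At an unadjusted p under 0.05, 37 members were higher and 1 lower, against 8.49% and 7.57% of all genes. The smallest adjusted p among members was 0.0515.

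The gap between the ends of the control transcripts moved with the members: the 3 null lines had its 3 lowest values and the 3 highest medians. With this gap as a covariate in the fit, the median of the members between null and wild-type was 0.28 and 66 had a higher mean, but 0 passed the adjusted test, 0 were past 2-fold and 3 had an unadjusted p under 0.05. The part of RNA quality in the result was not tested beyond this fit, in which genotype and covariate largely overlap. The ESC and fibroblast markers moved with genotype too. In null against wild-type ESCs 12 of the 13 ESC markers had a higher mean (median 0.69, 2 called) and 3 of the 19 fibroblast markers (median −0.43, 0 called), and their part in the result was not tested.

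**Figure D3:**
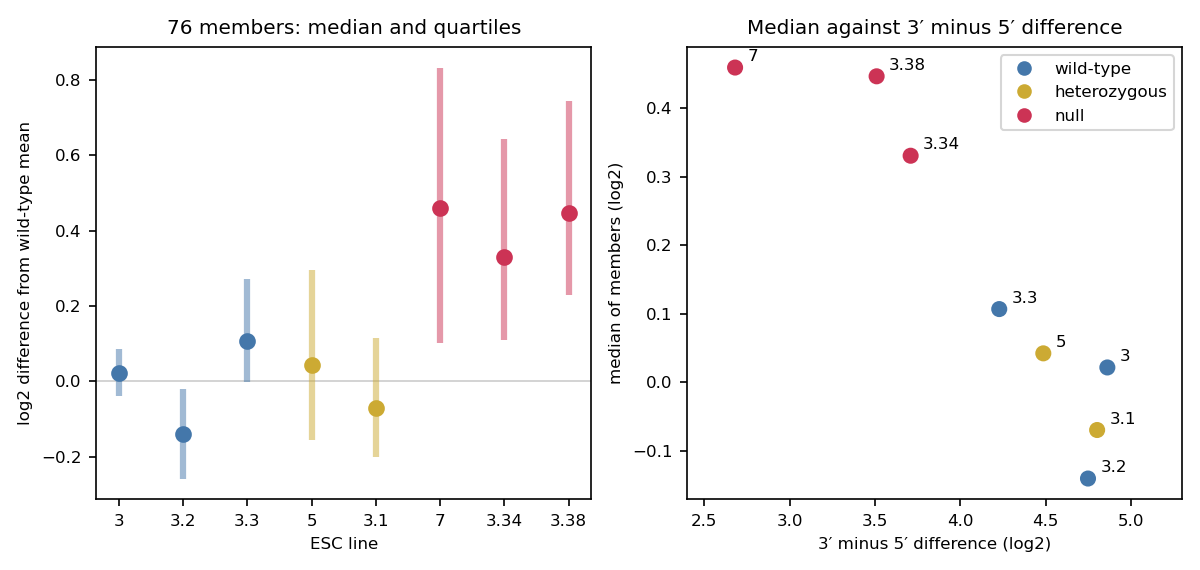
Left, the median (point) and interquartile range (bar) of the 76 members in each ESC line, as log2 difference from the wild-type mean of each gene. Right, the same medians against the 3′ to 5′ gap in Gapdh and beta-actin (log2), where the 3 null lines lie at upper left and the other 5 lines at lower right.

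In heterozygous ESCs the members were not shifted to one side. Against wild-type ESCs 37 of 76 members had a higher mean, the median difference was −0.01 and the interquartile range of members included 0 in both lines. No member passed the adjusted test in limma, as no gene did in this comparison, and at an unadjusted p under 0.05 there were 3 members higher and 1 lower, against 1.67% and 2.18% of all genes. None was past 2-fold in either direction, where 0.126% of all genes were past it upward and 0.209% downward. Both heterozygous lines lay above all wild-type lines for 9 members, against 8.44% of all genes, and below for 4, against 8.83%.

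Mrps12, next to the decoding centre, had the highest difference at 0.41, with 7.98, 7.59 and 7.62 in wild-type and 8.27 and 8.01 in heterozygous lines. Mrps2 was at 8.29, 8.38 and 8.14 against 8.75 and 8.58, a difference of 0.39, and is the one member where heterozygous lines lay above both the wild-type and the null lines. Mrpl3 (0.33) and Mrpl55 (0.31) followed. Mrpl9 had the lowest difference at −0.54, with overlapping lines, ahead of Mrpl24 at −0.49 and Mrpl12 at −0.46. Mrpl10, which anchors the Mrpl12 stalk, was at 6.84, 6.43 and 6.74 in wild-type, 6.39 and 6.04 in heterozygous and 7.27, 7.11 and 7.26 in null lines, so its heterozygous lines lay under and its null lines above the wild-type lines.

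Null against heterozygous ESCs shares its null lines with the first comparison and adds 2 lines on the other side. Here 66 of 76 members had a higher mean in null ESCs, with a median of 0.41. Null lines lay above both heterozygous lines for 46 members, where 13.3% of all genes did so, and below for 2, Mrpl44 and Mrps2, where 14.5% did so. Over detected genes these shares were 21.4% and 18.3%. No member passed the adjusted test in limma, nor did any gene, while 39 members were higher and 2 lower at an unadjusted p under 0.05, against 7.65% and 6.16% of all genes. The smallest adjusted p among members was 0.0529, for Mrpl20, at a difference of 1.28. Past 2-fold were 11 members upward, against 1.76% of all genes, and 0 downward, against 0.66%. These were Mrpl4, Mrpl12, Mrpl17, Mrpl20, Mrpl24, Mrpl27, Mrpl46, Mrpl49, Mrps7, Mrps18a and Mrps35. Without wild-type line 3.2, 12 members passed the adjusted test here, as did 346 of all genes. All 8 arrays share 1 estimate of the spread, and the cause of this change was not tested.

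Several members carry more than 1 probe set, which gives a second reading of the same gene. Of 156 member probe sets 120 averaged higher in null ESCs, and of the 109 detected ones 88 did, with a median difference of 0.36. The detected ones include probe sets of Mrps5, Mrps6 and Mrps16 that were present in all null lines but in no wild-type line, and so entered through the null lines. The chosen probe sets of Mrpl12 and Mrps27 also entered only through the null lines. They were present in some wild-type lines but not all, and in no heterozygous line. The 42 detected probe sets that were not chosen had a median of 0.17, with 30 higher. In 28 members with several detected probe sets, all differences had the same sign in 16.

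Some of the members that looked flat read differently elsewhere. Mrpl11, at the base of the stalk, measured 8.77, 8.68 and 8.75 in wild-type and 8.72, 8.80 and 8.63 in null lines on the chosen probe set, which is of a type that can match several transcripts. On another probe set it measured 6.59, 6.15 and 6.66 in wild-type, 6.02 and 6.16 in heterozygous and 7.66, 7.41 and 7.15 in null lines, a difference of 0.94, and on one more, again of the ambiguous type, the difference was −0.08. Mrps5 was not detected on the chosen probe set. Another was detected in the 3 null lines only, and so met the detection rule only through the lines where it was high. On it Mrps5 measured 4.69, 4.37 and 5.06 in wild-type, 4.71 and 5.05 in heterozygous and 6.65, 5.78 and 5.98 in null lines, at least 2.69-fold higher in null than in wild-type ESCs. Its other detected probe sets differed by 0.35 and −0.16. Mrpl48 had a second probe set at 0.70, and Mrpl44 one at 0.66 and one at −0.20, where the chosen ones differed by −0.06 and −0.32. Of the 11 members with a lower mean, 6 had another detected probe set with a higher mean in null ESCs. Members that rose could also read flat or lower elsewhere, as in some picked after their values were seen. Mrpl13, at 0.66 on the chosen probe set, had others detected at 0.07 and 0.05, and Mrps14, at 0.74, had one at 0.06. Mrps21, at 0.64, had one at −0.29, and Mrpl57, at 0.67, one at −0.05, both of low level (means of 3.82 and 3.56).

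**Figure D4:**
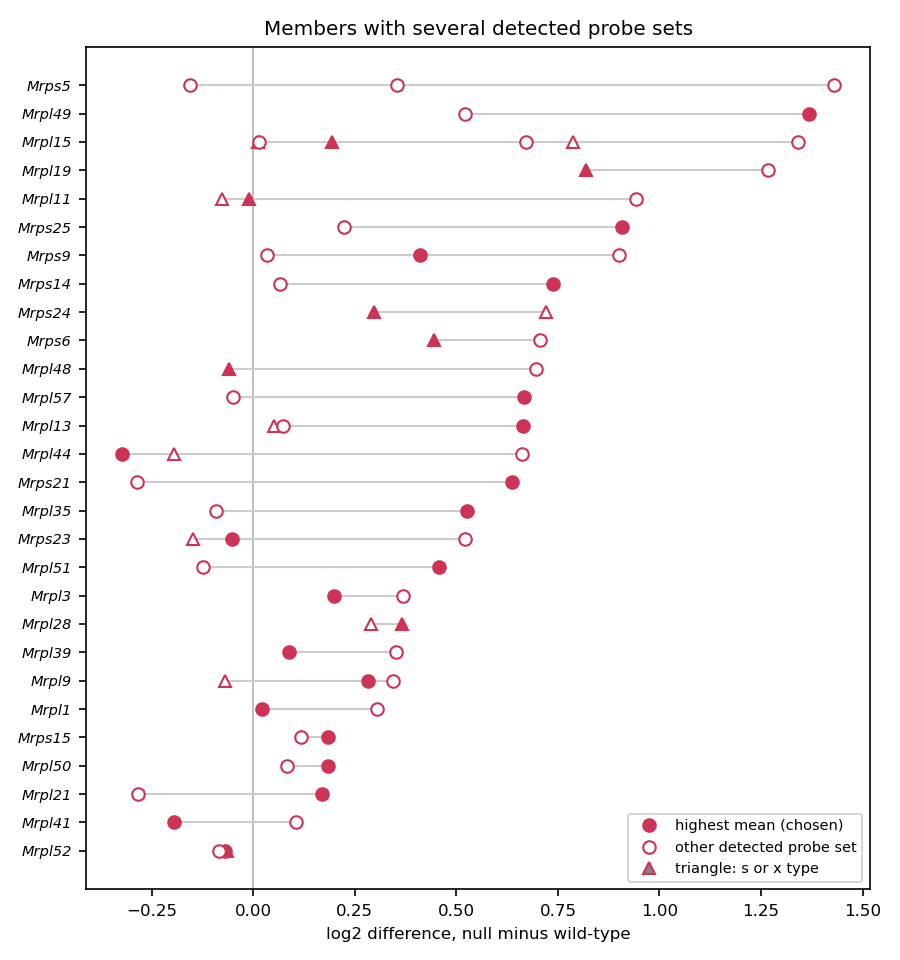
Log2 difference, null minus wild-type, of every detected probe set of the 28 members with several (1 row a gene), with the chosen probe set filled and probe sets of the s or x type, which can match several transcripts, as triangles. Readings of 1 gene differ by up to 1.59, in Mrps5, and those of 16 genes stay on 1 side of 0.

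The genes around the mitochondrial ribosome were taken as lists by role. Of 4 further ribosomal subunits without an Mrp symbol, all had a higher mean in null ESCs, and Dap3, a GTP-binding protein of the small subunit, rose by 0.96 (standard error 0.14, adjusted p = 0.0350 from limma), from 7.63, 7.72 and 7.94 to 8.91, 8.59 and 8.68. The other three were Ptcd3 at 0.61, Gadd45gip1 at 0.59 and Chchd1 at 0.10. Assembly factors of the mitochondrial ribosome had a median of 0.14 over 28 genes with 0 called, from Eral1, an RNA chaperone of the small subunit, at −0.43 to the protease Lonp1 at 1.07 (adjusted p = 0.0719 from limma). Translation factors (13 genes, median 0.08), mitochondrial aminoacyl-tRNA synthetases (19 genes, median 0.10) and factors of mitochondrial DNA and its transcripts (11 genes, median 0.22) had 0 called each. Within the last group Lrpprc, which stabilizes mitochondrial mRNAs, stood at 1.13 and Polrmt, the mitochondrial RNA polymerase, at −0.39, and neither passed the test.

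Beside the other ribosome and the respiratory chain, the members had the higher median. Cytosolic ribosomal proteins (42 genes) had a median of 0.13 with 26 higher and 1 called, Rps14 at 1.42 (adjusted p = 0.0483 from limma). Nuclear-encoded subunits of oxidative phosphorylation (74 genes) had a median of 0.25 with 58 higher and 3 called, Uqcrfs1 of complex III at 1.10, Atp5o of the ATP synthase at 0.92 and Cox6b2 of complex IV at 0.89. Past 2-fold upward were 6 oxidative phosphorylation genes and 4 cytosolic ones, beside 4 members. Null lines lay above all wild-type lines for 47.3% of oxidative phosphorylation genes and 38.1% of cytosolic ones, beside 61.8% of members. The shares past 2-fold and with lines above were 1.37% and 11.1% of all genes, and 3.11% and 17.8% of detected genes. Whether the groups differ from each other was not tested. The line medians of oxidative phosphorylation genes were 0.30, 0.18 and 0.32 in the null lines and −0.06 to 0.06 in the other five.

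**Figure D5:**
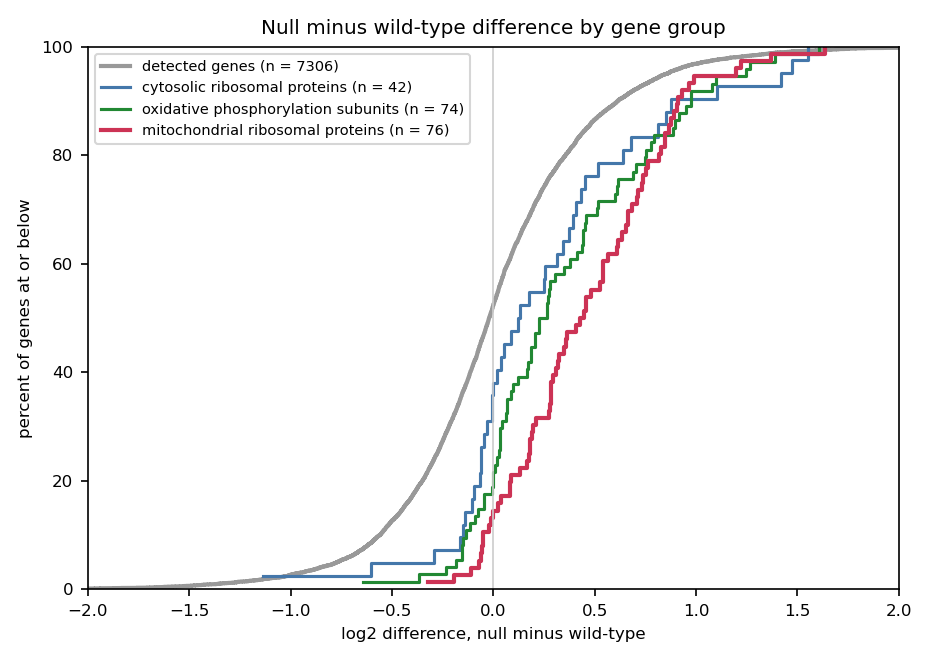
Percent of genes (vertical axis) at or below each log2 difference between null and wild-type ESCs (horizontal axis), for the 76 mitochondrial ribosomal proteins, 74 oxidative phosphorylation subunits, 42 cytosolic ribosomal proteins and 7306 detected genes. The curve of the mitochondrial ribosomal proteins lies farthest right up to its upper tail, and its median is 0.44.

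Among nuclear regulators of mitochondrial genes 1 of 12 passed the test. Pprc1, a coactivator related to PGC-1alpha, rose by 0.89 (standard error 0.16, adjusted p = 0.0467 from limma), from 6.30, 6.44 and 6.69 in wild-type to 7.59, 7.44 and 7.09 in null lines. Nrf1, a factor known to bind promoters of many nuclear genes for mitochondrial proteins, stood at 0.54 (adjusted p = 0.185 from limma) and Yy1 at −0.37 (adjusted p = 0.457 from limma). Ppargc1a, which encodes PGC-1alpha, was present in no line.

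Promoters of the members were read in RefSeq windows (GRCm38.p6 build) of 300 bases, 250 before and 50 after each transcript start, of which 73 were listed for 67 of the members, and 6 motifs were sought on both strands. None of the motifs contains another. The ETS core CCGGAAG, bound by factors such as GABPA, was in 34.2% of member windows, against 8.86% of all 32851 windows and 19.3% of the windows of detected genes. The NRF1 core GCGCANGCG was in 20.5%, against 6.25% and 14.8%, and the YY1 core AAGATGGC in 16.4%, against 2.75% and 4.90%. The E-box CACGTG was in 9.59%, against 7.15% and 10.5%, CCAAT in 39.7%, against 37.4% and 38.2%, and GGGGAGGGG, a GC-rich core described for Zfp281, in 5.48%, against 6.37% and 8.84%. The median difference between null and wild-type, in members with and without the motif, was 0.46 and 0.34 for the ETS core, 0.54 and 0.36 for the NRF1 core, and 0.41 and 0.41 for the YY1 core. It was 0.48 and 0.39 for the E-box, 0.39 and 0.43 for CCAAT, and 0.26 and 0.43 for the GC-rich core, which only 4 members hold. These are descriptions of letters, with no test, and do not show binding.

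The promoters of the 4 genes that passed the test, and those of Mrpl12, with the largest difference, and Mrpl44, with the lowest, are given from 150 bases before to 30 after the start, 5′ to 3′ on the strand of the gene, with motif matches in capitals. They lie at chr4:155802728-155802907 (Mrpl20, plus strand), chr7:78783060-78783239 (Mrpl46, minus strand), chr17:46110854-46111033 (Mrps18a, plus strand), chr11:115403602-115403781 (Mrpl58, plus strand), chr11:120484487-120484666 (Mrpl12, plus strand) and chr1:79775868-79776047 (Mrpl44, plus strand). Capitals mark the E-box in Mrpl20, the ETS and YY1 cores in Mrps18a, a pair of ETS cores in Mrpl58, and the NRF1 core in Mrpl12 (on the opposite strand) and Mrpl44.
Mrpl20: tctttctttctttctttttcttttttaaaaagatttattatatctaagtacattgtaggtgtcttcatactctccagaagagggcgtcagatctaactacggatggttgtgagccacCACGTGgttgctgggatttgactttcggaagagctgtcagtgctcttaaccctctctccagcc
Mrpl46: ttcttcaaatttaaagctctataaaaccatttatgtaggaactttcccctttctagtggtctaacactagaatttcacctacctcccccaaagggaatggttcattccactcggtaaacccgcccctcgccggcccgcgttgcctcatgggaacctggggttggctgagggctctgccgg
Mrps18a: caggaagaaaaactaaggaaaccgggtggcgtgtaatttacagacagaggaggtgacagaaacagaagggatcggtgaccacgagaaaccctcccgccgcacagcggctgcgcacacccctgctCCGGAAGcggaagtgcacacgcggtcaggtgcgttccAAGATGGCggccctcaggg
Mrpl58: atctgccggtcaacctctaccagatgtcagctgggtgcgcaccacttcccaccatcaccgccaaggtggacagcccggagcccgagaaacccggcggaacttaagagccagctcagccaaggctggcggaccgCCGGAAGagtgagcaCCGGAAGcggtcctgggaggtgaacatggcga
Mrpl12: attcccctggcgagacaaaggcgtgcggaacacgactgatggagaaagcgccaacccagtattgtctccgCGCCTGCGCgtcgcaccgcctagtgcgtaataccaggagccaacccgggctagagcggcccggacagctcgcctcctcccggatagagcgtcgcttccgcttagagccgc
Mrpl44: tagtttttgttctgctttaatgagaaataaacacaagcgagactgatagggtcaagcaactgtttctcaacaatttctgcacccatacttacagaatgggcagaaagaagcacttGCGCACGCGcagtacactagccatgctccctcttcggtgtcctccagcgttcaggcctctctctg
Mrpl12 and Mrpl44, at opposite ends of the differences, both hold an NRF1 core, and no capitals appear in Mrpl46. No match says only that these letters are not in the window.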

How the data were processed

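Total RNA of 8 ESC lines was hybridized to Affymetrix mouse genome arrays, 1 for each line. Probe sets were summarized by the authors with RMA over all arrays, and the deposited values are on a log2 scale. RMA and limma stand in the submitters' processing notes without a version. Signal intensity with a detection call and detection p-value was also deposited array by array, with unknown scaling. Each log2 column tracked the signal of its own array best once the mean over arrays was removed.

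Names came from the platform annotation. Of 45101 probe sets 64 controls were left out, 34945 named 1 gene, 932 several and 9160 none listed. Genotypes were compared with limma 3.58.1 in R 4.3.3 (lmFit, eBayes, 3 genotype means, all 8 arrays), with Benjamini-Hochberg adjustment over 18193 genes. The script was tested on simulated data. Tables and figures used Python 3.11.15, numpy 2.4.6, pandas 2.3.3 and matplotlib 3.10.9. The number of arrays limits precision.

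The members, gene lists and tests were chosen with earlier results of these data known. Named members are those at an adjusted p under 0.05 in any comparison, the 8 highest and 6 lowest differences between null and wild-type, the 4 highest and 4 lowest between heterozygous and wild-type, the 3 with the largest wild-type SD, those present in no line, the Mrps18 paralogs, those whose detected probe sets differ in sign by over 1, and Mrps36. Mrps16, Mrpl13, Mrps14, Mrps21 and Mrpl57 were among those named outside this rule, after their values were seen. Of each list, called genes and the 2 highest and 2 lowest were eligible. Where no line of a genotype was present, a fold is a bound against the higher of the gene's own value and the lowest value among present probe sets of each array. Promoter sequences are from RefSeq.

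Alternatives were averaged probe sets, signal values (log2 after adding 16, median-centred), quantile normalization, detected probe sets only, the 2 genotypes alone, the 3′ to 5′ gap as covariate, an intensity trend and leaving out each line. Leaving out s and x probe sets, leaving out the 2 arrays with fewest probe sets present, and using litter pairs alone (medians, and a limma fit with the litter as a block) were added after seeing the data.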

Additional observations from a re-analysis of the deposited data

How the results depend on the processing

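For null against wild-type ESCs the median difference of the members stayed positive in every alternative run, from 0.28 with the 3′ to 5′ gap as covariate to 0.53 without s and x probe sets, and was 0.44 in the litter pairs. Members whose lines did not overlap numbered 48, and 36 to 53 in the alternatives. The number at an adjusted p under 0.05 was less stable: against 4 it was 0 with signal values, with the covariate and without the 2 arrays with fewest probe sets present, 2 with quantile normalization, with the 2 genotypes alone and with an intensity trend, 12 over detected probe sets only, where fewer genes are tested, 6 without s and x probe sets, and 0 to 3 with 1 line left out. The number past 2-fold, 4, was 0 with the covariate, 2 without the 2 arrays and 2 to 10 with 1 line left out. For null against heterozygous ESCs the count at an adjusted p under 0.05, 0, became 1 with averaged probe sets and with a trend, 2 with the 2 genotypes alone and without s and x probe sets, 8 over detected probe sets and 0 to 12 with 1 line left out. Its number past 2-fold, 11, was 6 with signal values and 2 with the covariate, and its median of 0.41 was 0.23 with the covariate. For heterozygous against wild-type ESCs, members past 2-fold went from 0 to 3 and those without overlap from 13 to 58 without the 2 arrays, which leaves 1 heterozygous line, and the latter ran from 13 to 42 with 1 line left out. The shares of all genes without overlap and past 2-fold are not given for fits with fewer lines. There the lines of any gene separate more readily, so these counts do not speak to the members in particular. Of all genes, 206 were called between null and wild-type ESCs in the main fit, 8 with signal values and 0 with the covariate. Over detected probe sets only 442 of 7306 were called, and without s and x probe sets 274 of 17903. Without null line 7, wild-type line 3 or wild-type line 3.2 these calls numbered 3, 2 and 4. Apart from the smaller number of genes or lines where it applies, the cause was not tested.

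Direction turned in members near 0. With averaged probe sets the null minus wild-type difference was 0.21 for Mrpl44, 0.15 for Mrpl48, 0.14 for Mrpl34, 0.32 for Mrpl38 and 0.22 for Mrpl11, and heterozygous minus wild-type was −0.010 for Mrpl3. Null minus wild-type was 0.53 for Mrpl38 with signal values, 0.70 for Mrpl48 and 0.94 for Mrpl11 without s and x probe sets, and 0.011 for Mrpl52, 0.0027 for Mrpl48 and 0.0071 for Mrpl38 without the 2 arrays. With the covariate it was 0.17 for Mrps36, 0.43 for Mrpl52, 0.17 for Mrpl48, 0.037 for Mrps30 and 0.33 for Mrpl38. With 1 line left out it ran from −0.18 to 0.018 for Mrps36, −0.22 to 0.079 for Mrpl52, −0.24 to 0.046 for Mrps30, −0.058 to 0.049 for Mrpl38, −0.15 to 0.037 for Mrpl34, −0.053 to 0.032 for Mrpl11 and −0.12 to 0.0027 for Mrpl48. The labels give the genotypes no shared replicate numbers. In the 2 litter pairs named by the study, a fit with the litter as replicate block gave 0 members at an adjusted p under 0.05 from limma, against 4, with 4 arrays in place of 8. Probe sets without a present call, among them those of 5 members in all lines, say little about their genes.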
